A study of Mus musculus with 12 samples.

Results

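Variation among wild type mice was read from the 3 arrays, of 12 in the series, that each compared the renal medulla of 1 wild type mouse with that of another. The mice are called WT1, WT2 and WT3, and the 3 arrays were WT1 against WT2, WT1 against WT3 and WT2 against WT3, chosen from their labels alone. The remaining 9 arrays compared a wild type mouse with an aquaporin-1 knockout mouse (6 arrays) or 2 knockout mice (3 arrays). They entered the fit to estimate the dye effect, each mouse's level and each clone's error. They also served for comparison of the spread and for counts of clones by mouse. The labels name the source as inner medulla and the study's methods describe adult mice of both genotypes. No treatment is named, and strain, sex and age were not given in the sources used here. Each of the 6 mice was measured on 4 arrays, on 2 of them with the green and on 2 with the red Alexa Fluor dye, so the 4 arrays of a mouse are repeated measurements of 1 animal. The arrays carried 15600 cDNA clones of the NIA Mouse 15K set, and each value was a normalized log2 ratio, green over red.

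The inner medulla is the deepest zone of the kidney, where thin limbs of Henle's loop, collecting ducts and vasa recta run through an interstitium made hypertonic by salt and urea. Its cells survive there with the help of organic osmolytes and of osmoprotective chaperones such as Osp94, and they depend more on glycolysis than the outer zones do. Aquaporin-1 is the water channel of the proximal tubule, the thin descending limb and the descending vasa recta, and the 3 mice described here carry it by their label.

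Only 336 of the 15600 clones (2.15%) have a gene description in the part of the layout analysed here, and these came from 4 well positions of the clone plates (G01, G07, H01 and H07). The other clones are given by their identifiers. No description named aquaporin-1 or a defining marker of the inner medulla, so neither the genotype nor the tissue label was checked. Spot brightness is not part of the ratio table, and no intensity filter was applied, so clones that were barely above background are included. The study's own tests left out genes without consistent signal above background.

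The ratios within the wild type arrays were centred near 0, and on 2 of the 3 arrays they were no narrower than on some arrays between genotypes. The SD over all clones was 0.577 for WT1 against WT2, 0.554 for WT1 against WT3 and 0.403 for WT2 against WT3, on the log2 scale. A ratio beyond 1 in either direction, a 2-fold difference, was read for 1233, 1272 and 458 clones on these arrays, or 7.90%, 8.15% and 2.94%. On the other 9 arrays the SD ran from 0.482 to 0.895. The mean SD was 0.511 ± 0.0945 (SD, n = 3 arrays) within wild type, 0.565 ± 0.0726 (n = 6) between genotypes and 0.734 ± 0.145 (n = 3) within knockout. WT2 against WT3 was the narrowest of the 12 arrays, and the other 2 wild type arrays overlapped the arrays between genotypes.

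The mean SD within wild type was 0.823 times that of the other 9 arrays, with p = 0.214 in a two-sided exact permutation test over arrays, whose smallest possible p is 0.00455. Against the 3 knockout arrays the ratio was 0.697 (exact permutation p = 0.10, the smallest that 3 against 3 arrays allow two-sided). These arrays share mice, so they are not fully independent.

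**Figure D1:**
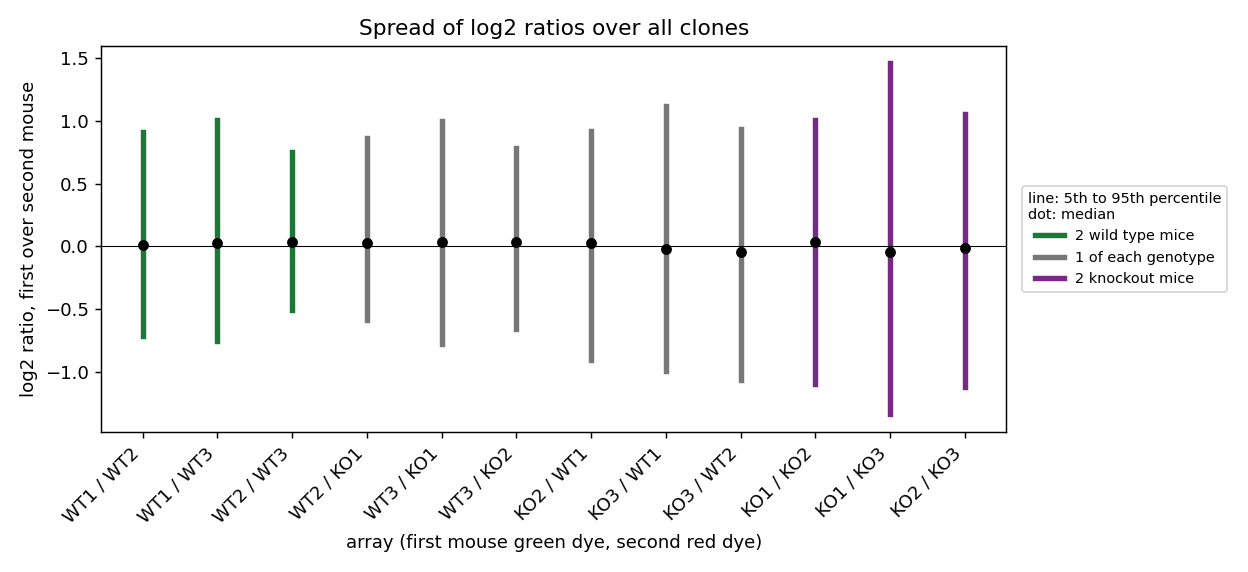
Log2 ratios of the 12 arrays, first named mouse (green dye) over second (red dye): each line runs from the 5th to the 95th percentile over 15600 clones, and the dot is the median. The medians lie within 0.05 of 0, the lines of the 3 wild type arrays are of the same order as those between genotypes, and KO1 against KO3 has the longest line.

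The arrays that share WT1 did not share its pattern. If WT1 has a high level of an RNA, that clone is expected on the same side of 0 on both arrays that carry WT1 in green. Of 458 clones beyond 1 on both, only 29 (6.33%) had the same sign and 429 had opposite signs. For WT2, which was red on one array and green on the other, 107 of 123 such clones (87.0%) had the opposite signs that a level of that mouse gives. Any other opposition between these arrays gives those signs too. For WT3, red on both, 117 of 132 (88.6%) had the same sign, but there the dye gives the same sign too. Across all 15600 clones, WT1 against WT2 correlated with WT1 against WT3 at r = -0.333 (Spearman's correlation -0.141) and with WT2 against WT3 at r = -0.197, while WT1 against WT3 and WT2 against WT3 correlated at r = 0.273. These are correlations across clones, which share slides, dyes and sequence families and are not replicates.

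The array of WT1 against WT2 therefore stood apart. Its correlation with the other 11 arrays ran from -0.376 to 0.207, and its correlation with the ratios predicted for it from the other 11 was -0.158. For WT1 against WT3 the same correlation was 0.0106, for WT2 against WT3 it was 0.306, and for the 9 other arrays it ran from 0.0695 to 0.532. It was also the only array whose ratios ran against the dye effect estimated from the others (r = -0.283, compared with 0.156 to 0.465 for the rest). The labels and the study's array names give the same dyes for this array. The array names also carry a day, which for WT1 against WT3 was another than for the other 2 wild type arrays. Of the 3 other arrays of its own day, WT1 against WT2 correlated with WT3 against KO2 at 0.132, with KO2 against WT1 at 0.185 and with WT2 against WT3 at -0.197, and with the 3 arrays of the day of WT1 against WT3 at -0.376 to -0.313. The part of the day was not tested. The labelled direction was kept, and the main counts that rest on this array are also given without it or with its sign turned.

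The 3 mice measured in pairs form a loop, so that WT1 over WT2 plus WT2 over WT3 should equal WT1 over WT3 for each clone. Over all clones the sum came no closer to the direct ratio than unrelated arrays would. The sum minus the direct ratio had a median of 0.00565 but an SD of 0.895, against an SD of 0.896 that 3 unrelated arrays of the same spread would give. The ratio of these, 1.00, is the closure ratio, which is 1 where the arrays share nothing. It approaches 0 only where mouse differences are large beside array error. A value near 1 alone therefore does not tell a failed loop from small mouse differences. Here the 3 arrays were not unrelated. The r of -0.333 between WT1 against WT2 and WT1 against WT3 widens the sum. The r of WT2 against WT3 with these arrays, -0.197 and 0.273 in that order, narrows it, and the effects nearly cancel. The sum lay within 0.5 of closing for 9720 clones (62.3%), and 2494 (16.0%) missed by more than 1. In the 7 other loops of 3 mice the closure ratio ran from 0.709, for the 3 knockout mice, to 1.05.

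Every closing sum also holds the dye effect of the clone, once in the wild type loop and 3 times in 2 of the others. Subtracting a dye effect estimated on the 9 other arrays gave a closure ratio of 1.08. With the sign of WT1 against WT2 turned it was 0.835, inside the range of the other loops. Turning that sign would place 429 of the 458 doubly large WT1 clones on the same side, but it would leave only 16 of 123 WT2 clones in the direction of a WT2 difference. Why this array differs from the rest was not tested.

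**Figure D2:**
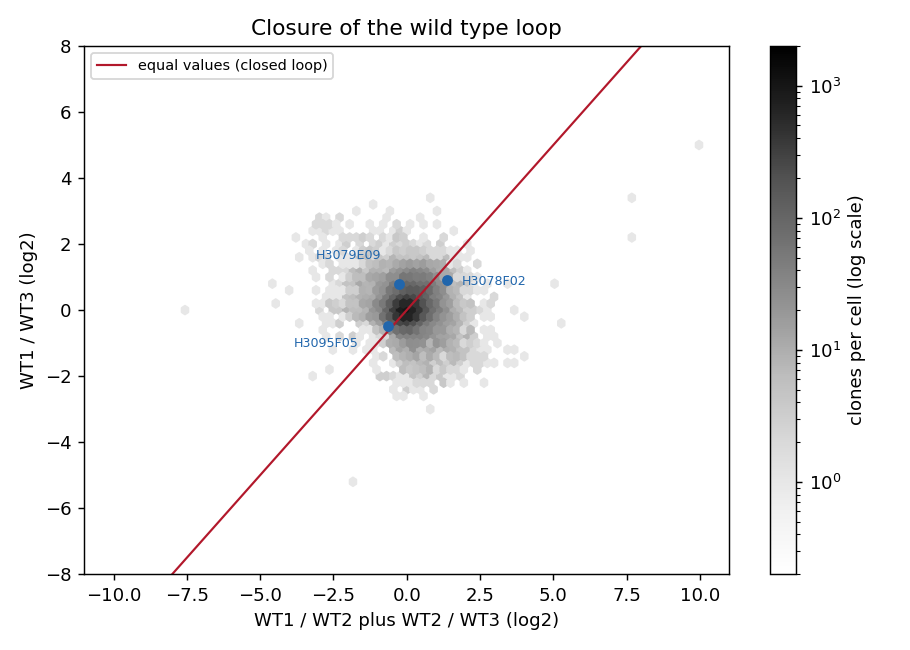
The indirect comparison of WT1 with WT3 (x axis, the sum of 2 log2 ratios) against the direct array (y axis, log2), for 15600 clones counted in hexagonal cells with a logarithmic grey scale. The red line marks equal values, the blue points are the 3 clones that differed between wild type mice, and the cloud does not follow the line (r = -0.129 across clones).

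**Figure D3:**
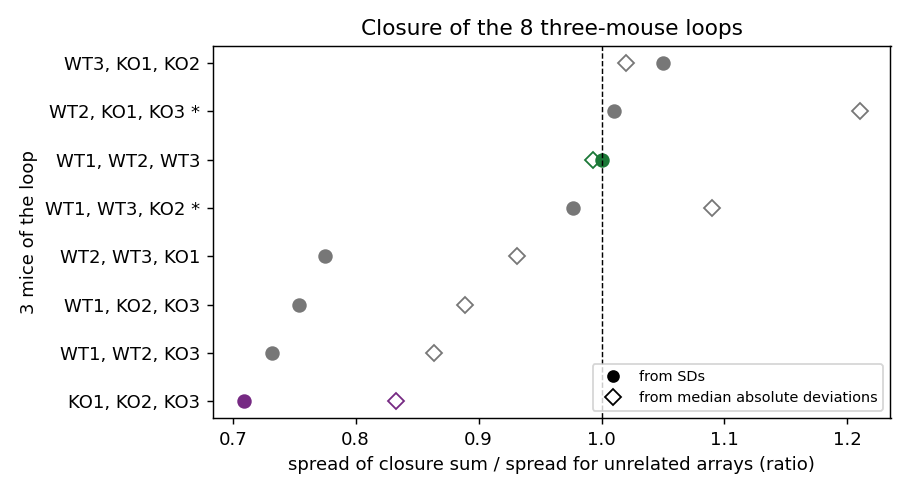
Closure ratio of the 8 loops of 3 mice, from SDs (filled) and from median absolute deviations (open), with wild type in green, knockout in purple and mixed loops in grey; an asterisk marks the loops whose sum holds the dye effect 3 times. The wild type loop sits at the dashed line of unrelated arrays, at 1.00 and 0.993.

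Estimates from the loop and from the other arrays also differed for the same pairs. For the loop, each difference was fitted by least squares to its 3 arrays together. Each pair's value thus also holds the other 2 arrays, and WT1 against WT2 enters all of them. The 9 arrays outside the loop give their own estimate of each difference between wild type mice, through the knockout mice. With their dye effect subtracted from the loop arrays, the correlation across clones between the 2 estimates was -0.126 for WT1 and WT2, -0.360 for WT1 and WT3 and 0.226 for WT2 and WT3. Without the subtraction it was 0.0900, 0.222 and 0.340. In those 9 arrays WT1 was always red and WT3 always green, so that the dye estimate and these indirect differences are tied. Only WT2 against WT3 kept a positive correlation in both.

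A model of mouse and dye over all 12 arrays (limma, with 6 residual degrees of freedom per clone) found few clones that differed among the 3 wild type mice. At an adjusted p under 0.05 (Benjamini-Hochberg over all clones), 2 of 15600 clones were called by the F-test, which is 0.0128% of those tested, and 825 passed an unadjusted p of 0.05 where 780 are expected if nothing differs. By pairs, limma called 2 clones between WT1 and WT2 (0.0128%), 0 between WT1 and WT3 (0%, 858 at an unadjusted p under 0.05) and 2 between WT2 and WT3 (0.0128%). Without variance moderation no clone was called in any of these tests, with 782 at an unadjusted p under 0.05 by F. A term for failure of the wild type loop to close was called for 0 clones (0%), with 1158 at an unadjusted p under 0.05 and 866 without moderation.

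The precision of these differences set what could be seen. The 95% interval of a difference between 2 wild type mice had a median half-width of 0.519 on the log2 scale, or 1.43-fold, and 5% of clones had a half-width above 1.16. The median absolute difference was 0.156 to 0.172 in the 3 pairs. The range of the 3 fitted levels, the largest difference among them, had a median of 0.270 and a 95th percentile of 0.920, and it was above 1 in 586 clones (3.76%). An SD of 0.240 was observed among the fitted levels of wild type mice over all clones, of which array error accounts for 0.231. The remaining between-mouse SD was 0.0642 in wild type and 0.231 in knockout mice. This order turned when each array was scaled to one spread, to 0.160 in wild type and 0.126 in knockout, and the difference between genotypes was not tested.

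The clones that passed were higher in WT2. Clone H3079E09 read WT2 over WT1 by 3.04, over WT3 by 2.76, over KO1 by 2.19 and over KO3 by 3.40 on the log2 scale, the first and last with WT2 in red and the others with WT2 in green. All 4 arrays of WT2 thus placed it above its partner, with either dye. WT1 over WT3 was 0.780 on the direct array. The fitted level of WT2 was 2.86 above WT3 (SE 0.282, limma adjusted p = 0.0226), a 7.24-fold difference, and 2.63 above WT1 (adjusted p = 0.0453).

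Clone H3078F02 read WT2 over WT1 by 0.815, over WT3 by 2.19, over KO1 by 2.30 and over KO3 by 2.32. Its fitted difference was 1.66 against WT3 (SE 0.155, limma adjusted p = 0.0226), or 3.16-fold, and 1.07 against WT1 (adjusted p = 0.0942). The 3 arrays without WT1 lay within a narrow band and the array with WT1 was lower. Clone H3095F05 read 1.89 over WT1, 1.25 over WT3, 0.422 over KO1 and 1.74 over KO3. WT2 exceeded WT1 by 1.75 in the fit (SE 0.185, limma adjusted p = 0.0453), or 3.37-fold, but the F-test gave an adjusted p of 0.0721. Its range was 1.53 without WT1 against WT2 (limma adjusted p = 0.502 by F) and 0.205 with the sign of that array turned. None of the 3 clones has a description here, so the genes are not named.

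These calls were close to the threshold. Without the array of WT1 against WT2 no clone was called, and H3079E09 and H3078F02 both had a limma adjusted p of 0.199 by F, although their ranges among wild type mice changed only from 2.86 to 2.68 and from 1.66 to 1.60. Leaving out WT3 against KO1 gave 4 clones by F, of which 1 was among the 2 called on all arrays. Leaving out any one of the other 10 arrays also gave 0.

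WT2 differed from its partners on all of its arrays for more clones than WT1 or WT3 did, a lead that rests on the array of WT1 against WT2. For each mouse, clones were counted whose ratio put it above the partner by more than 1, or below by more than 1, on all 4 of its arrays. WT2 was higher for 32 clones and lower for 0. WT1 was higher for 1 and lower for 2, and WT3 for 0 in both directions. Among the knockout mice KO3 was higher for 40 and lower for 29, and KO1 and KO2 had at most 3 in either direction. On the 3 arrays that remain to each without WT1 against WT2, the counts were 47 higher and 0 lower for WT2, and 46 higher and 3 lower for WT1. By fitted level, the mouse farthest from the other wild type mice was WT1 for 4681 clones, WT2 for 5340 and WT3 for 5579.

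A clone chosen on 3 arrays can be read on the fourth, which took no part in the choice. On its 3 arrays other than WT1 against WT2, mouse WT2 was higher by more than 1 for 47 clones. On WT1 against WT2 itself, 43 of these 47 (91.5%) were again higher in WT2 and 32 (68.1%) by more than 1, while 48.2% and 3.52% of all clones were. With WT2 against KO1 held out, 38 of 39 clones kept the direction, beside 53.4% of all clones. With KO3 against WT2 held out 39 of 41 did, beside 54.5%, and with WT2 against WT3 held out 143 of 173 (82.7%) did, beside 55.1%. The shares again beyond 1 in the first 2 of these were 82.1% and 78.0%, where 4.06% and 5.79% of all clones were. With WT2 against WT3 held out the share was only 18.5%, where 2.15% of all clones were. The 4 sets share the 32 clones and all come from RNA of 1 animal, so they bear on the measurement of that mouse and not on wild type mice in general.

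The same reading for WT1 came out differently. Mouse WT1 was higher by more than 1 for 46 clones on its 3 arrays other than WT1 against WT2. On that array 26 were higher in WT1 (56.5%, beside 51.8% of all clones) and 20 lower. Beyond 1 there were 1 higher (2.17%, beside 4.38% of all clones) and 11 lower (beside 3.52% of all clones). With WT1 against WT3 held out, 35 clones were lower in WT1 on the other 3 arrays. Of these, 15 (42.9%) were lower on the fourth, beside 46.4% of all clones. For WT3 no choice of 3 arrays gave more than 6 clones in either direction. The repeat was not particular to WT2, since for KO3 the shares that kept the direction ran from 88.2% to 100%. The 47 WT2 clones and the 46 WT1 clones had 2 in common.

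The 32 clones high in WT2 on all 4 arrays came from 28 plates and 28 well positions. H3079E09 was the farthest from 0, at 2.19 or more on each array. H3090A09 followed at 1.97 or more and H3099G09 at 1.70 or more, with limma adjusted p-values of 0.142 and 0.0917 by F. Only 1 of the 32 passed the F-test. In 29 of the 32, KO3 was also below WT1 on their own array, as it was for 52.1% of all clones.

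Of the 32, 2 have descriptions. SWAM1 (H3103H07, now Wfdc15b in RefSeq) encodes an elafin-like protein with a whey acidic protein domain, a fold found in protease inhibitors and antimicrobial proteins. It read WT2 over WT1 by 2.23, over WT3 by 1.17, over KO1 by 2.10 and over KO3 by 2.09, a 2-fold or larger excess on each array. Its range over the fitted wild type levels was nevertheless 1.32 with a limma adjusted p of 0.994, and 0.600 without WT1 against WT2. The other was a clone similar to cytochrome c oxidase III (H3120H07), a mitochondrially encoded subunit of the last respiratory complex, at 3.45, 1.07, 1.35 and 2.05. These were picked out after their values were seen.

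**Figure D4:**
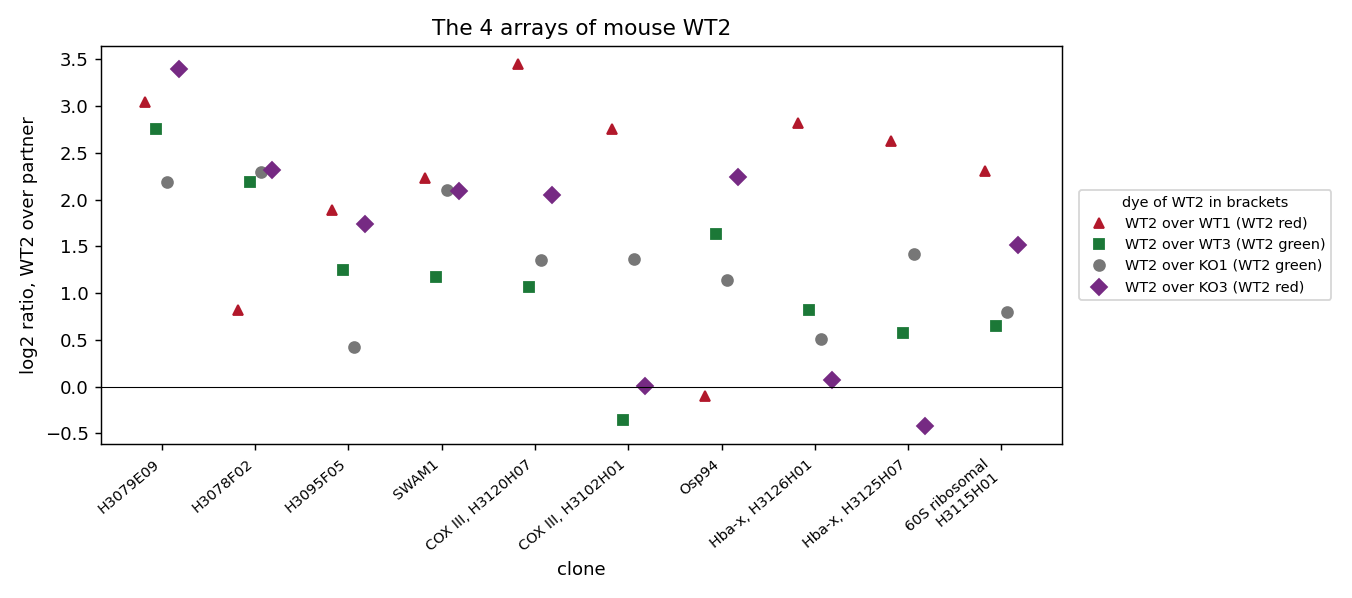
Log2 ratio of WT2 over each of its 4 partners for 10 clones, with WT1 and KO3 measured against WT2 in red and WT3 and KO1 against WT2 in green. All but Osp94, H3102H01 and the Hba-x clone H3125H07 are above 0 on all 4 arrays. All but H3079E09, H3078F02 and Osp94 have their largest value on the array with WT1.

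Gene lists of the 336 described clones gave the pattern by function, as counts and medians beside the median range of 0.259 for all described clones and their 22 clones (6.55%) above 1. No clone of any of the 9 lists was called among wild type mice, by F, by pair or by the loop term. Vesicle traffic (7 clones) had a median range of 0.224, cytoskeleton and junctions (11) of 0.281, and TGF-beta and growth factor signalling (6) of 0.221, and none of these clones had a range above 1 on all arrays. Without WT1 against WT2, 1 did, Eps15 at 1.13. Within these, Vps26a, a retromer subunit that returns receptors from endosomes, ranged by 0.155 and 0.224 on its 2 clones. Tgfb1i1, a focal adhesion adaptor induced by TGF-beta, ranged by 0.130 and septin 7, a filament-forming GTPase, by 0.137. The largest ranges of these lists were 0.575 for Vps45, which serves membrane fusion, 0.564 for the polarity protein Pard3 (0.0750 with the sign of WT1 against WT2 turned) and 0.724 for the endocytic adaptor Eps15. Next were 0.460 for the Golgi membrane protein Tgoln2, 0.499 for the junction protein envoplakin and 0.357 for Igfbp3, which binds insulin-like growth factors.

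Protein synthesis was the list with the widest share of large ranges. Of its 11 clones 5 had a range above 1 (45.5%), and the median was 0.555. The values came from 1 array: on WT1 against WT2, 6 of the 11 read below -1, that is higher in WT2, and 0 above 1, and the list's median there was -1.39. On WT1 against WT3 the median was 0.661 and on WT2 against WT3 0.228. Ribosomal protein Rps27a, made as a fusion with ubiquitin, read -2.09, 0.929 and -0.608 on the 3 arrays in that order. A 60S ribosomal protein clone (H3115H01) read -2.31, 0.0300 and 0.652, and another (H3098G07) -1.53, -0.241 and -0.335. The initiation factor Eif1a, at 0.0750, 0.810 and 0.643, had the smallest range, 0.139. Without WT1 against WT2 its range was 0.405 and that of Rps27a was 0.158.

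Without the array of WT1 against WT2, 0 of the 11 translation clones had a range above 1 and the list's median was 0.420, beside 0.320 for all described clones. With its sign turned the count was also 0 and the median 0.664. Ribosomal protein genes have many processed pseudogenes, and cDNA clones do not separate them.

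Mitochondrial energy metabolism followed in part. Its 10 clones had a median range of 0.447, with 2 above 1, both of them cytochrome c oxidase III. These read -3.45, 2.07 and 1.07 (H3120H07) and -2.76, 1.59 and -0.355 (H3102H01) on WT1 against WT2, WT1 against WT3 and WT2 against WT3. The direct array thus put WT1 above WT3 for both, whereas WT1 against WT2 put WT1 far below WT2, and their loops missed closing by -4.45 and -4.71. Without WT1 against WT2 their ranges were 1.10 and 0.790. The trifunctional enzyme alpha subunit, which oxidizes long-chain fatty acids, was flat at -0.0520, 0.149 and -0.0450.

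Transport and prostaglandin genes had the highest median range on all arrays, 0.645 over 8 clones. It was 0.647 without WT1 against WT2, below the 0.740 of the osmotic stress list there, and 0.401 with the sign of that array turned, below the 0.664 of the translation list. Slc21a2 (now Slco2a1), the prostaglandin transporter, read 1.60, -0.995 and -0.649 and had a range of 1.16, with WT2 lowest and WT3 highest. A clone similar to a lysine-deficient protein kinase, of the family that sets salt transport, read 0.873, -0.338 and 0.752, with a range of 1.26 and WT3 highest in the fit, although the direct array put WT2 above WT3. The array of WT3 against KO2 read 6.80 for this clone, and without it the range was 0.329, whereas it was 2.31 without WT2 against WT3. Itpr1, the receptor that releases calcium from internal stores, read -0.00600, -0.286 and 0.0550, and its range was 0.0450. The limma adjusted p by F was 0.999 for each of the 3.

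The osmotic stress and heat shock list, of chaperones and co-chaperones, had a median range of 0.216 over 5 clones. Osp94 (now Hspa4l), a chaperone of the Hsp110 family induced by hypertonicity, ranged most on all arrays, by 0.961. Without WT2 against WT3 its range was 0.292, below the 0.999 of Hsp86-1. It read 0.105 for WT1 against WT2, -0.211 for WT1 against WT3 and 1.63 for WT2 against WT3, so that WT2 exceeded WT3 but not WT1, while WT1 did not exceed WT3. WT2 also read above KO1 by 1.14 and above KO3 by 2.24. Hsp86-1 (now Hsp90aa1), an inducible Hsp90, read 0.402, 1.82 and -0.183. Heat shock 70kD protein 8, the constitutive Hsp70, read 0.170, 1.25 and 0.350. The co-chaperones Fkbp4 and Dnaja3 ranged by 0.216 and 0.204.

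Without WT1 against WT2 this list's median range was 0.740, and 2 of 5 clones were above 1, Osp94 at 1.22 and Hsp86-1 at 1.10. The limma adjusted p by F was 0.952 for Osp94 and 0.999 for each of the other 4 on all arrays.

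**Figure D5:**
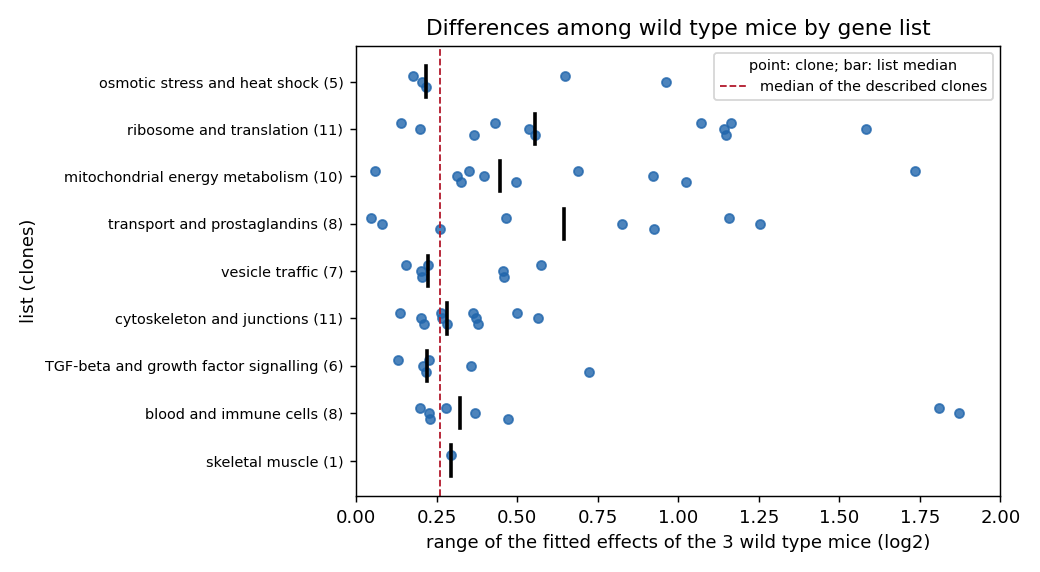
Range of the fitted levels of WT1, WT2 and WT3 (log2) for each clone of the 9 gene lists, with the list median as a black bar and the median of all described clones, 0.259, as a dashed line. Ranges above 1 occur in the translation, mitochondrial, transport and blood lists, and none of the clones was called.

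Blood content was read from the globin clones. The 2 clones of Hba-x, the embryonic alpha-like globin whose sequence resembles the adult alpha-globins, had the widest ranges of all described clones, 1.87 (H3126H01) and 1.81 (H3125H07). On WT1 against WT2 they read -2.82 and -2.63, on WT1 against WT3 0.0540 and 0.495, and on WT2 against WT3 0.816 and 0.579. WT2 was thus above both other mice on both clones, by far more against WT1. WT2 read above KO1 by 0.507 and 1.42, and against KO3 it read 0.0710 and -0.423. WT1, in red, read below KO2 by 1.39 and 1.67 and below KO3 by 1.49 and 1.82. The widest differences thus involved a low WT1 as well as WT2, while WT1 against WT3 did not put WT1 lower. Without WT1 against WT2 their ranges were 0.829 and 0.641, and with its sign turned 0.479 and 0.381. The other 6 clones of the blood and immune list had ranges below 0.5, from 0.199 for the immunoglobulin mu chain upward. Mylpf, a fast skeletal muscle myosin light chain that could mark adhering muscle, ranged by 0.296. The part of blood in the other differences was not tested, and in whole tissue fewer cells of a type and less RNA per cell cannot be told apart.

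Genes present as 2 clones allow a check of one probe against another, and the differences repeated in some pairs only. Both clones were read on the same arrays, so an error of an array can repeat in both. The Hba-x clones gave fitted levels of -0.971 and -0.947 for WT1, 0.900 and 0.864 for WT2 and 0.0710 and 0.0830 for WT3, relative to the mean of the 3 mice. These levels rest in part on WT1 against WT2, at -2.82 and -2.63, without which the ranges were 0.829 and 0.641. The cytochrome c oxidase III clones shared the order of WT1 and WT2 but put WT3 at -0.641 on one and 0.0640 on the other. Gnaq, the alpha subunit of the Gq protein that couples hormone receptors to phospholipase C, did not repeat. H3108H01 read -0.662, -1.32 and 0.205 on the 3 arrays, with a range of 1.40, and H3004G01 read -0.0830, 0.662 and 0.0150, with a range of 0.0920. Vps26a and the transcription factor E2-alpha had ranges of 0.285 or less on both of their clones.

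The remaining described clones with wide ranges depended on the same array to unequal degrees. H3131G07 (Vwa5a in RefSeq) read -4.11 on WT1 against WT2 but 0.605 and 0.0400 on the others, and its range was 1.55, or 0.462 without that array. H3119G07 (Trmt5, a transfer RNA methyltransferase) read -3.25, 1.60 and 0.184, with a range of 1.23, or 0.912 without it. Dtnb, the dystrophin-associated dystrobrevin beta, read 1.90, -0.842 and -0.475 and ranged by 1.26, or 0.890 without it. H3082H01, of unknown function here, read -0.557, -0.400 and 0.815 and its range was 1.16, or 1.53 without that array.

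Among the described clones with the largest F statistics was H3081H01, described only as similar to a human hypothetical protein, which read -0.719, -0.294 and 1.47 on WT1 against WT2, WT1 against WT3 and WT2 against WT3. It had a range of 1.15, with WT2 highest, and a limma adjusted p of 0.530. Its range was 1.42 without WT1 against WT2 and 0.579 with that sign turned.

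The 5 described clones with the largest loop statistic were H3093G07, H3069G01, Rps27a, a sterol carrier protein 2 pseudogene (H3122G01) and CD63, a tetraspanin of lysosomes and exosomes. None passed, with a limma adjusted p of the loop term of 0.542 for each. CD63 read -1.75, 1.51 and 0.360 on WT1 against WT2, WT1 against WT3 and WT2 against WT3 and missed closing by -2.90. These clones were chosen by this sum, so its size is a description.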

How the data were processed

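The deposited table held 15600 log2 ratios for each of 12 two-colour arrays, with 0 missing. Per the study's methods, the authors subtracted background, applied a linlog transform (linear at low intensity, so low ratios are compressed), removed trends with brightness and slide position by lowess, and averaged duplicate spots; the labels say data were re-extracted from the images. Signs follow channel 1 minus channel 2, as labelled. Mouse and dye effects were fitted with limma 3.58.1 (R 4.3.3) over 12 arrays, moderated, with Benjamini-Hochberg adjustment over all clones, and tested on simulated data. The limma p-values rest on the spread between repeated arrays of the same 6 animals after mouse and dye effects, not on spread between animals. The number of arrays limits precision. Of 240 symbols in the layout, 200 matched RefSeq (GRCm38.p6) for renaming. Clones named were the 10 widest ranges, 5 largest F and 5 largest loop statistics among described clones, 5 gene pairs, list extremes and undescribed calls; others are marked in the text, and 1 named clone is not reported here. Members, lists and rules were chosen with earlier results of these data known. The alternatives tried were other variance models, dye terms, scalings, clone filters and arrays left out.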

Additional observations from a re-analysis of the deposited data

How the results depend on the processing

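No paired analysis was possible because the mouse and array numbers only name samples and pair none across groups. Against 2 clones by F and 4 pair calls, plain variances, a threshold of 0.01, dye effects fitted by day (as the array names give it), the 3 wild type arrays alone, and (added after seeing the data) the sign of WT1 against WT2 turned gave 0 and 0. The robust prior gave 0 and 2. By F alone, centring and array weights (not fully converged) gave 0 and no dye term gave 1. Scaling to one spread gave 4 and 9. Leaving out 1 array or 1 knockout mouse gave 0 to 4 by F and 0 to 7 pair calls, and loop calls stayed at 0 in all settings run. The closure ratio kept between 0.985 and 1.08 except with that sign turned, 0.835. The mean correlation of the loop's fitted differences with the indirect ones, -0.0870, was 0.217 with the dye effect not subtracted. The between-mouse SD of 0.0642 was 0 with median-based variances and with no dye term, 0.160 after scaling, and 0 to 0.134 with 1 array left out. The ratio of array spreads stayed between 0.752 and 0.910, with exact permutation p from 0.0955 to 0.527. Of 752 values for the named clones, 28 lost and 1 gained a call, all for H3079E09, H3078F02 or H3095F05. Causes were not tested. Dim clones were not separated, since the ratio table used holds no brightness, and a log2 difference under 0.519 lies within the typical 95% interval.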
